A study of Mus musculus with 17 samples.

Results

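The genes described here are 27 genes of cholesterol synthesis, sterol sensing and sterol transport, chosen by name and matched by gene identifier among the 31091 genes of the count table. All 27 were detected and tested in every comparison, so none was lost to the filter on low counts. Their mRNA was read from bulk poly(A) libraries of cDC1s and of cDC2s, the cross-presenting and the mainly CD4+ T cell-priming lineages of conventional dendritic cells. The cells came from spleens of 8-week-old female C57BL/6JRj mice that carried subcutaneous B16 melanoma expressing FLT3L, which expands cDCs, and the study pooled spleens of at least 2 mice. CD11c+ cells were enriched with beads, kept for 6 h with GM-CSF and the medium of TC-1 cells, a C57BL/6 lung epithelial line transformed with HPV16 E6 and E7 and H-ras, and then sorted into cDC1s and cDC2s. Medium of TC-1 WT cells, which are live, gave the WT groups. Medium of TC-1-iBimS cells, in which BimS drives apoptosis, gave the BimS groups, and medium of TC-1-iRIPK3 cells, in which oligomerizing RIPK3 drives necroptosis, gave the RIPK3 groups. All 3 kinds of TC-1 cells had received cumate, which induces both transgenes from a CMV5 promoter with a cumate operator. Both inducible lines were grown from single sorted cells, so that a difference between BimS and RIPK3 medium cannot be told apart from a difference between these clones. The medium was added without centrifugation and held dying cells and debris as well as soluble material. Each group had 3 samples, except cDC2s with RIPK3 medium, which had 2. The labels do not say that replicates came from separate animals, and p-values then measure the spread between these samples.

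Cholesterol is built from acetyl-CoA. The mevalonate arm leads to farnesyl diphosphate, squalene synthase and squalene epoxidase commit it to sterols, lanosterol is the first ring-closed sterol, and a further series of steps turns lanosterol into cholesterol. The transcription factor SREBP2, the product of Srebf2, switches these genes on when sterol in the endoplasmic reticulum is low: SCAP carries it to the Golgi for cleavage, and the INSIG proteins hold it back when sterol is plentiful. Cells that engulf other cells also receive cholesterol through lysosomes, where NPC2 and NPC1 hand it on for export. The data address whether these genes differ between cDCs given live-cell medium, apoptotic debris and necroptotic debris, and between cDC1s and cDC2s.

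The promoters of the members that passed the test with BimS medium in both cell types are shown first, because the rest of the text returns to these genes. The 8 genes are Hmgcs1, Fdft1, Sqle, Cyp51, Msmo1, Srebf2, Npc1 and Npc2, and 5 of them have an entry in the RefSeq promoter table (mouse build GRCm38.p6), which holds 22 of the 27 members. Fdps, Fdft1, Sqle, Stard4 and Npc1 have none in it. The 250 bases before the annotated start are printed 5′ to 3′ on the strand of the gene. Capitals mark matches on either strand to TCACNCCAC, a form of the sterol regulatory element that SREBP binds, and to CCAAT, the box of the factor NF-Y, read as ATTGG on the other strand. The windows lie at chr13:119690101-119690350 (plus strand) for Hmgcs1, chr15:82147019-82147268 (plus strand) for Srebf2, chr5:4104698-4104947 (minus strand) for Cyp51, chr8:64733579-64733828 (minus strand) for Msmo1 and chr12:84773113-84773362 (minus strand) for Npc2.
Hmgcs1: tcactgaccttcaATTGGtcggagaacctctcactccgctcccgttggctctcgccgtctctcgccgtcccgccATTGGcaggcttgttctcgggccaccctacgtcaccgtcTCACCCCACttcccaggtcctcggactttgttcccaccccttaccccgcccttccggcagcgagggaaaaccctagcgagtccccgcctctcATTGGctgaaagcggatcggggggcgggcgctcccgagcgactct
Srebf2: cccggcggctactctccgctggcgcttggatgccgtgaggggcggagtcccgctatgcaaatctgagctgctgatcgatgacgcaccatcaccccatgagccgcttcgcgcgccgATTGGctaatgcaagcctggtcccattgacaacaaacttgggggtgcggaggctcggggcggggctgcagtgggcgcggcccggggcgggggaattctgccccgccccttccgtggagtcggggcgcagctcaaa
Cyp51: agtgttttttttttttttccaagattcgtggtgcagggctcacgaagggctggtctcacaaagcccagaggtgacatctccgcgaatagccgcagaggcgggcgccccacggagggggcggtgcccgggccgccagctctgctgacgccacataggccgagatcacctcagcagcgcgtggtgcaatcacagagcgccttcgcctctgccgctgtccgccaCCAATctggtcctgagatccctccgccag
Msmo1: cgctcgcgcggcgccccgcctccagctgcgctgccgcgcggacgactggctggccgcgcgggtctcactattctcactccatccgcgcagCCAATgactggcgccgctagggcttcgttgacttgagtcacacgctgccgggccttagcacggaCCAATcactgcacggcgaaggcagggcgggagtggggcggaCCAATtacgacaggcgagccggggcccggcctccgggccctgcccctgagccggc
Npc2: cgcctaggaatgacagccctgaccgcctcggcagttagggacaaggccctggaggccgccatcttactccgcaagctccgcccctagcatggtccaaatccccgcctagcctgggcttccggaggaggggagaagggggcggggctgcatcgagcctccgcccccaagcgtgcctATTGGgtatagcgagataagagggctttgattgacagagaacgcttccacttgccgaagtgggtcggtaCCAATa
The sterol regulatory element in this form was found once among the 28 windows of members, in Hmgcs1, with its first base 137 bases before the start. It is present in 1.24% of all 32851 windows of 300 bases. A CCAAT box on either strand was found in 20 of these 28 windows and in at least 1 window of 20 of the 22 members, beside 37.4% of all windows. The search does not cover variant sites or sequence outside the window, and a match is not evidence of binding.

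The 17 libraries held 16095159 to 21645289 counts (median 18986002), and the members took 0.114% to 0.133% of them. The summed level of 5 cDC1 markers was 1152 to 1437 CPM (counts scaled to TMM library sizes) in cDC1 samples and 73.7 to 98.7 CPM in cDC2 samples, and that of 5 cDC2 markers was 2.06 to 4.02 CPM and 269 to 362 CPM. The sums thus matched the sort labels in every sample. Within the lists, all 5 cDC1 markers passed the test in cDC1s with each debris, 2 higher and 3 lower, with mean levels of Irf8 at 309 CPM with WT, 184 with BimS and 176 with RIPK3 medium. In cDC2s, 1 of 5 cDC2 markers was lower with BimS and 3 with RIPK3 medium, with mean levels of Irf4 at 37.0, 16.6 and 13.0 CPM, and the part of these shifts in the results was not tested. Of 15 genes of adherent tumor cells, which stand for RNA of the TC-1 debris, 14 were in the table. Their sum was 4.16 to 6.93 CPM in cDC1s of all media and 21.8 to 40.2 CPM in cDC2s, where Cdh1 made up most of it, and 1 of them, in cDC1s with RIPK3 medium, passed the test of a medium against WT. The sum of 9 macrophage genes was 58.8 to 62.1 CPM in cDC1s with WT medium, 36.0 to 43.4 CPM with BimS and 25.2 to 29.4 CPM with RIPK3 medium. In cDC2s it was 34.3 to 40.3, 27.7 to 28.7 and 22.2 to 24.8 CPM. Most of this sum was Timd4, the group means of the other 8 genes lay at or below 4.00 CPM, and their part in the results was not tested. In bulk RNA, fewer cells of a type and less RNA per cell cannot be told apart.

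The cell types differed in these genes already with medium of live cells. With WT medium, 13 of the 27 members were lower and 5 higher in cDC1s than in cDC2s by edgeR's quasi-likelihood test with Benjamini-Hochberg adjustment, which gives every adjusted p below. Over all genes tested, 23.7% were called lower and 22.5% higher in this comparison, so the 5 higher calls lie near the background and the 13 lower calls above it. With edgeR's filterByExpr, which drops more genes of low counts, 13 members were again lower and 5 higher. The share of all genes called then rose from 46.2% to 60.9%, so the distance from the background depends on the filter. The median log2 fold change was -0.20 over the members and 0.01 over all genes.

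The widest gap was that of Idi1, the isomerase that makes the building block dimethylallyl diphosphate. It was at 2.44, 2.04 and 1.75 CPM in cDC1s and at 9.90, 7.17 and 7.28 CPM in cDC2s, with no overlap (log2 fold change -1.97 ± 0.20 SE, adjusted p = 3.04e-09). Acat2, the cytosolic thiolase that joins acetyl-CoA units, was at 2.94, 2.54 and 3.10 CPM in cDC1s and at 9.44, 9.01 and 10.1 CPM in cDC2s (-1.73 ± 0.18, adjusted p = 2.46e-09). It shares 322 bp of exon on the other strand with Tcp1, whose level was 340.1 CPM in cDC1s against 408 CPM in cDC2s, and the sources used here do not say whether counting used strand. Squalene epoxidase, Sqle, a rate-limiting enzyme of the sterol branch, was at 5.23, 4.58 and 3.68 CPM in cDC1s and at 8.57, 8.66 and 9.61 CPM in cDC2s (-0.996 ± 0.17, adjusted p = 2.35e-05). All 3 genes were thus separated in every sample.

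Hmgcs1, which makes HMG-CoA, was lower in cDC1s too (-0.86 ± 0.10), as were the sterol demethylase Cyp51 (-0.70 ± 0.10), the methylsterol oxidase Msmo1 (-0.60 ± 0.08) and the sterol carrier Stard4 (-0.71 ± 0.13). Lbr, which carries both a lamin-binding domain and sterol reductase activity, was at -0.66 ± 0.08. Npc1, Hsd17b7, Nsdhl, Fdft1 and Srebf2 completed the 13, with log2 fold changes from -0.94 for Hsd17b7 to -0.20 for Srebf2. Nsdhl had an adjusted p of 0.0457 and lost the call on leaving out 10 of the 17 samples in turn. Among the WT samples, Fdft1 lost it without cDC2 replicate 1 or cDC1 replicate 2, Hsd17b7 without cDC1 replicate 1 or 3, and Srebf2 without cDC2 replicate 1 or 2 or cDC1 replicate 3. The replicate block added Pmvk and Ebp to the lower calls, while the share of all genes called rose from 46.2% to 48.7%.

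Npc2, the soluble lysosomal cholesterol carrier, went the other way. It was at 569.6, 554 and 589 CPM in cDC1s and at 255, 279.6 and 298 CPM in cDC2s (1.04 ± 0.07, adjusted p = 1.67e-13), and it had the highest level of all members in both. Tm7sf2, one of the sterol C14 reductases, was at 2.94, 3.87 and 4.45 CPM in cDC1s and at 1.95, 1.72 and 2.37 CPM in cDC2s (0.90 ± 0.22, adjusted p = 0.00112). It shares 532 bp of exon with Vps51 on the same strand, which can shift reads between the pair.

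Insig2, a SCAP-retaining protein, was also higher in cDC1s (0.53 ± 0.09), as was the farnesyl diphosphate synthase Fdps (0.39 ± 0.09). Dhcr7, which acts at the last steps of cholesterol synthesis, was at 0.60, 1.42 and 1.44 CPM in cDC1s and at 0.31, 0.34 and 0.81 CPM in cDC2s. This difference rests on 12 to 32 counts against 6 to 15 and the groups overlapped (1.24 ± 0.41, adjusted p = 0.0149), and it lost the call without WT replicate 2 or 3 of the cDC1s or WT replicate 1 or 2 of the cDC2s. The 9 members without a call were Mvk, Pmvk, Mvd, Ggps1, Lss, Ebp, Sc5d, Scap and Insig1.

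**Figure D1:**
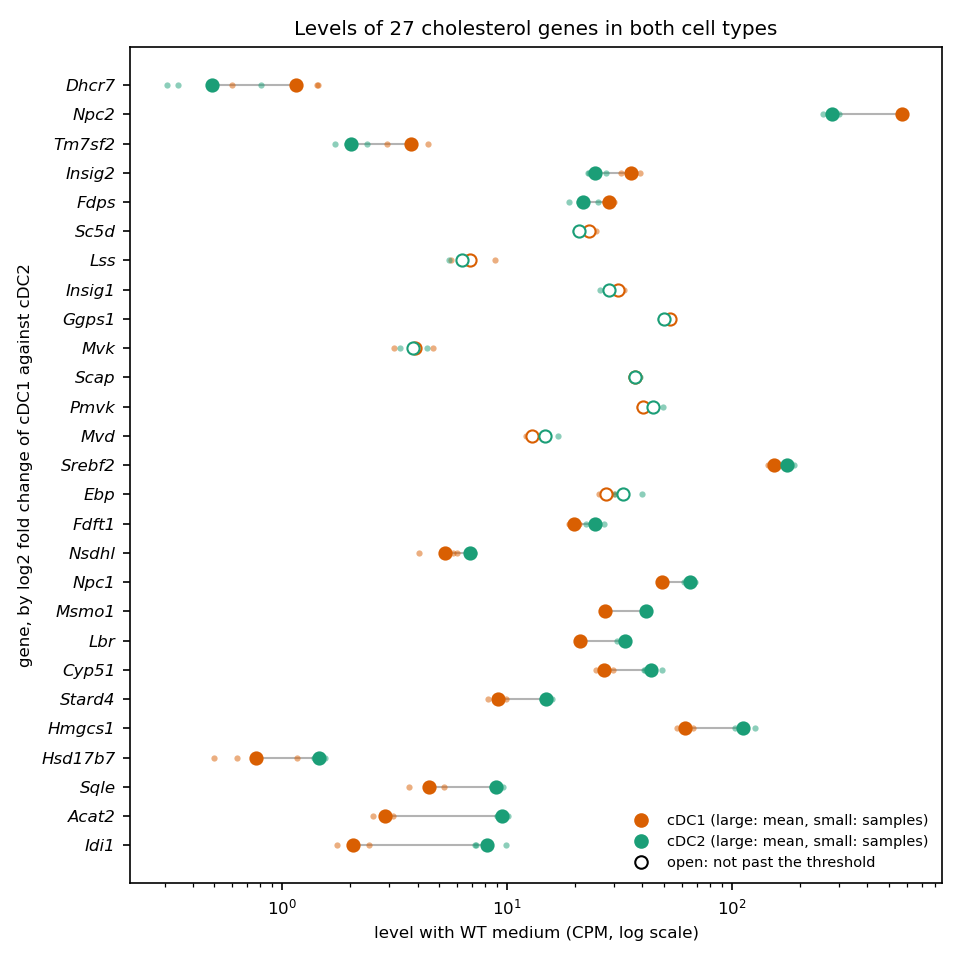
Levels of the 27 members with WT medium in cDC1s (orange) and cDC2s (green), in CPM on a log scale, with small points for samples, large points for means and open points where the difference did not pass the threshold. Idi1 and Acat2 at the bottom lie furthest to the cDC2 side, and Npc2, at 571 CPM against 278 CPM, lies furthest right.

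Per kilobase of the canonical transcript, which allows levels of different genes to be compared, Npc2 led in cDC1s with WT medium at 143 CPM per kb. Pmvk (33.6), Srebf2 (30.3) and Fdps (21.8) followed. Differences between neighbors in this order were not tested. At the other end stood Mvk (0.79), Dhcr7 (0.39) and Hsd17b7 (0.17). In cDC2s the order began with Npc2 (69.5), Pmvk (37.4), Srebf2 (34.8) and Hmgcs1 (27.4) and again ended with Mvk (0.78), Hsd17b7 (0.32) and Dhcr7 (0.16). These values depend on the transcript length chosen, since isoforms were not resolved.

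In cDC1s, 7 of the 27 members rose and 1 fell with BimS medium relative to WT medium. The background was 7.31% of 19513 genes higher and 5.89% lower. The median log2 fold change was 0.13 over the members and 0.00 over all genes. The 7 were Hmgcs1 in the mevalonate arm, Fdft1 and Sqle at squalene, Cyp51 and Msmo1 after lanosterol, Srebf2 itself and Npc1, and the 1 that fell was Npc2. The summed level of the 20 enzymes was 369 to 379 CPM with WT medium and 406 to 469.6 CPM with BimS medium. With the replicate number as a block, Sc5d and Stard4 also passed, while the share of all genes called rose from 13.2% to 17.9%.

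Sqle (ENSMUSG00000022351, chr15:59186869-59203043 in GRCm39) changed most. It was at 5.23, 4.58 and 3.68 CPM with WT medium and at 11.1, 7.01 and 8.71 CPM with BimS medium, and the groups did not overlap. The fold change was 1.99 (log2 0.99 ± 0.18, adjusted p = 0.000366). Sqle shares 470 bp of exon on the other strand with Washc5, which was at 40.4 CPM in cDC1s with WT medium and moved by 0.20 with BimS medium (adjusted p = 0.0343), and by -0.05 in cDC2s (adjusted p = 0.858). Hmgcs1, whose promoter holds the sterol regulatory element shown above, was at 67.0, 61.2 and 57.2 CPM with WT and at 104, 85.7 and 82.5 CPM with BimS medium (0.55 ± 0.11, adjusted p = 0.00783). Every BimS sample exceeded every WT sample.

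A pair of steps that follow lanosterol rose as well. Cyp51, which removes the C14 methyl group, was at 29.4, 25.0 and 26.2 CPM with WT and at 41.4, 36.7 and 31.6 CPM with BimS medium (0.45 ± 0.08, adjusted p = 0.000174). Msmo1, which oxidizes the C4 methyl groups, was at 27.8, 27.4 and 26.9 CPM with WT and at 41.9, 40.8 and 34.4 CPM with BimS medium (0.51 ± 0.07, adjusted p = 1.65e-06). In both genes the groups were apart, and the third BimS sample was the lowest of its group. Cyp51 shares 1253 bp of exon on the other strand with Akap9, whose level with WT medium was 501 CPM in cDC1s against 209 CPM in cDC2s and which moved by -0.14 with BimS medium in each (adjusted p = 0.27 and 0.64).

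Fdft1, squalene synthase, was at 20.9, 18.8 and 20.0 CPM with WT and at 28.9, 21.3 and 23.1 CPM with BimS medium (0.29 ± 0.09, adjusted p = 0.0259). The groups did not overlap, but the call was lost without WT replicate 2, WT replicate 3 or BimS replicate 1. It was also lost with both limma fits and with a joint fit of all samples. Fdft1 shares 1184 bp of exon with Ctsb on the other strand. Ctsb, at 148 CPM in cDC1s with WT medium, moved by 0.10 on the log2 scale (adjusted p = 0.248).

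Srebf2 was at 157, 159 and 145 CPM with WT and at 199.5, 179.9 and 184 CPM with BimS medium, again without overlap (0.29 ± 0.05, adjusted p = 0.000106). Of the genes that restrain or escort its product, Scap (0.02 ± 0.06), Insig1 (0.13 ± 0.07) and Insig2 (0.13 ± 0.07) did not pass the test. Thus 1 of the 4 members of the SREBP2 system passed the test.

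The pair of lysosomal cholesterol carriers diverged. Npc1, which moves cholesterol through the lysosomal membrane, was at 50.2, 48.0 and 47.8 CPM with WT and at 76.0, 74.4 and 71.5 CPM with BimS medium (0.60 ± 0.06, adjusted p = 8.76e-10). Npc2, its soluble partner, was at 569.6, 554 and 589 CPM with WT and at 463, 467 and 485 CPM with BimS medium (-0.28 ± 0.05, adjusted p = 0.000153). Neither gene had overlapping groups. Npc1 shares 1086 bp of exon with Rmc1 on the other strand, and Rmc1, at 52.5 CPM with WT medium, moved by 0.71 on the log2 scale (adjusted p = 1.62e-12), so without strand the reads of this pair cannot be told apart.

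**Figure D2:**
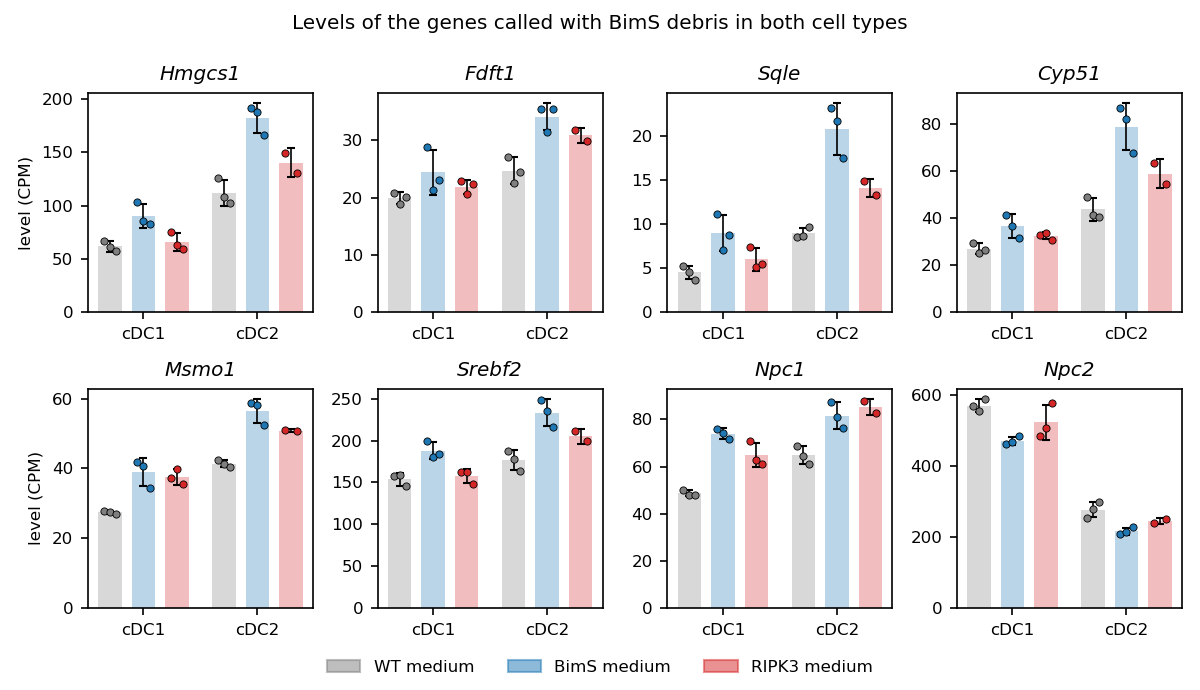
Levels in CPM of the 8 members called with BimS medium in both cell types, by medium (gray WT, blue BimS, red RIPK3), with bars for means, error bars for SD and points for samples (n = 3, and 2 for cDC2s with RIPK3 medium). In 7 genes the BimS samples stand above the WT samples, and in Npc2 below them.

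With RIPK3 medium, 5 of the 27 members rose in cDC1s and none fell past the threshold, beside 8.34% of all genes higher and 8.19% lower. The median log2 fold change was 0.04 over the members and -0.01 over all genes. With filterByExpr 5 members again rose and none fell. All genes called in either direction were then 25.1%, against 16.5% in the main fit. The BimS and RIPK3 comparisons share the WT samples. With the replicate number as a block, 7 members were higher and 2 lower, at a background of 10.3% and 10.7%. The blocked fit added Sqle, Ebp, Insig1 and Npc2 to the calls.

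Msmo1 was at 37.2, 39.9 and 35.4 CPM with RIPK3 medium, above the WT samples at 27.8, 27.4 and 26.9 CPM (0.46 ± 0.07, adjusted p = 1.15e-05). Npc1 was at 70.9, 62.7 and 61.1 CPM, against 50.2, 48.0 and 47.8 CPM (0.42 ± 0.06, adjusted p = 2.06e-06). Cyp51 was at 32.9, 33.4 and 30.7 CPM, against 29.4, 25.0 and 26.2 CPM (0.27 ± 0.08, adjusted p = 0.0232). Rmc1, which overlaps Npc1, moved by 0.79 with RIPK3 medium. In all 3 genes each RIPK3 sample was above each WT sample, though the call of Cyp51 was lost without WT replicate 2 or 3 or RIPK3 replicate 1 or 2.

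The other 2 calls were smaller. Ggps1, which makes geranylgeranyl diphosphate for protein prenylation, was at 52.1, 53.5 and 53.2 CPM with WT and at 58.8, 63.1 and 61.2 CPM with RIPK3 medium (0.21 ± 0.06, adjusted p = 0.0128). It overlaps Arid4b by 257 bp on the other strand, which lay at 642 CPM with WT medium and had a log2 fold change of 0.47. Insig2 was at 35.1, 39.2 and 32.0 CPM with WT and at 39.8, 41.2 and 45.7 CPM with RIPK3 medium (0.25 ± 0.07, adjusted p = 0.0117). Neither had overlapping groups. Ggps1 lost the call without WT replicate 1 or RIPK3 replicate 2, and Insig2 without replicate 3 of WT or of RIPK3. Insig2 and Cyp51 also lost it in a joint fit of all samples. With limma on log2(count + 1), Ggps1, Insig2 and Cyp51 all lost it.

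Several members that rose with BimS medium did not pass the test with RIPK3 medium. Hmgcs1 was at 75.1, 63.0 and 59.3 CPM (0.09 ± 0.11, adjusted p = 0.696) and Srebf2 at 162, 163 and 148 CPM (0.04 ± 0.05, adjusted p = 0.74). Sqle, at 7.44, 5.07 and 5.41 CPM, stood at 0.42 ± 0.19 (log2) (adjusted p = 0.158) and overlapped the WT samples. These values do not show that the levels were equal to those with WT medium.

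Compared directly, 3 members were lower with RIPK3 than with BimS medium in cDC1s and none was higher, at a background of 2.21% lower and 1.94% higher. The median log2 fold change was -0.15 over the members and -0.01 over all genes. Srebf2 differed by -0.25 ± 0.05 (adjusted p = 0.00289), with its highest RIPK3 sample at 163 CPM and its lowest BimS sample at 179.9 CPM. Insig1, a direct SREBP2 target that feeds back on it, was at 35.1, 35.3 and 30.9 CPM with BimS and at 26.1, 28.4 and 26.0 CPM with RIPK3 medium (-0.33 ± 0.08, adjusted p = 0.00613). Stard4, which carries cholesterol through the cytosol, was at 12.9, 11.2 and 9.74 CPM with BimS and at 8.40, 8.99 and 7.25 CPM with RIPK3 medium (-0.46 ± 0.12, adjusted p = 0.0207).

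The groups did not overlap in any of these 3 genes. Stard4 lost the call without BimS replicate 1 or RIPK3 replicate 3. In a joint fit of all samples none of the 3 was called. With the replicate block 6 members were lower and 2 higher, at a background of 4.79% and 4.07%, and the 5 that came in were Hmgcs1, Ggps1, Sqle, Npc1 and Npc2. Without RIPK3 replicate 1 the unblocked count was 8, at 5.09% of all genes. In the unblocked main fit Hmgcs1 stood at -0.46 ± 0.11 (adjusted p = 0.0531) and Sqle at -0.58 ± 0.17 (adjusted p = 0.0667). Of the 8 alternatives that keep all samples, block included, Hmgcs1 was called in 7 and Sqle in 4.

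In cDC2s, 14 of the 27 members rose and 1 fell with BimS medium, where the background was 3.80% of 19239 genes higher and 3.21% lower. The median log2 fold change was 0.33 over the members and -0.02 over all genes. Every role had members that rose: 3 of 8 in the mevalonate arm, 2 of 3 at squalene and lanosterol, 5 of 9 after lanosterol, 2 of 4 in the SREBP2 system and 2 of 3 in transport. The summed level of the 20 enzymes went from 473 to 504 CPM with WT medium to 640 to 696 CPM with BimS medium, without overlap.

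Sqle again changed most, from 8.57, 8.66 and 9.61 CPM to 23.1, 21.6 and 17.4 CPM (fold change 2.31, log2 1.21 ± 0.13, adjusted p = 2.15e-06). Hmgcs1 went from 126, 108 and 103 CPM to 192, 188 and 166 CPM (0.70 ± 0.09, adjusted p = 5.4e-05). Cyp51 went from 49.0, 41.2 and 40.5 CPM to 86.4, 82.0 and 67.4 CPM (0.85 ± 0.11, adjusted p = 2.42e-05). In all 3 the lowest BimS sample was above the highest WT sample.

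In the mevalonate arm Idi1 and Fdps rose as well. Idi1 was at 9.90, 7.17 and 7.28 CPM with WT and at 15.6, 14.1 and 12.5 CPM with BimS medium (0.79 ± 0.14, adjusted p = 0.00109). Fdps was at 18.9, 20.9 and 25.4 CPM with WT and at 34.6, 30.2 and 33.0 CPM with BimS medium (0.58 ± 0.11, adjusted p = 0.00151). Both were without overlap. Acat2 (-0.19 ± 0.13), Mvk (0.02 ± 0.20), Pmvk (0.08 ± 0.09), Mvd (-0.05 ± 0.12) and Ggps1 (0.11 ± 0.08) did not pass the test.

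After lanosterol, Lbr was at 34.6, 34.5 and 30.8 CPM with WT and at 47.4, 49.8 and 42.6 CPM with BimS medium (0.48 ± 0.09, adjusted p = 0.00223). Msmo1 was at 42.3, 41.4 and 40.5 CPM with WT and at 58.7, 58.1 and 52.5 CPM with BimS medium (0.45 ± 0.09, adjusted p = 0.00199). Both were apart in all samples. Sc5d, the lathosterol oxidase, stood at 0.39 ± 0.10 (adjusted p = 0.0195), and Hsd17b7, a 3-ketosteroid reductase, at 0.92 ± 0.24 (adjusted p = 0.0232). Hsd17b7 rested on 27 counts in each WT sample and 39 to 67 counts in BimS samples, and it lost the call without WT replicate 1 or 2 or BimS replicate 2. Sc5d lost it without WT replicate 2 or BimS replicate 1 or 2. Tm7sf2, Nsdhl, Ebp and Dhcr7 did not pass.

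Fdft1 was at 27.1, 22.5 and 24.6 CPM with WT and at 35.5, 31.5 and 35.5 CPM with BimS medium (0.46 ± 0.10, adjusted p = 0.00479). Srebf2 was at 188, 178 and 164 CPM with WT and at 249, 235 and 217 CPM with BimS medium (0.40 ± 0.08, adjusted p = 0.00385). Insig1 was at 29.7, 30.1 and 25.8 CPM with WT and at 34.2, 40.1 and 41.9 CPM with BimS medium (0.44 ± 0.10, adjusted p = 0.00967). None of the 3 overlapped. Fdft1 lost the call without WT replicate 2, and Insig1 without BimS replicate 2 or 3. The groups of Scap (-0.05 ± 0.09) and Insig2 (0.04 ± 0.10) overlapped.

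Of the transport genes, Stard4 was at 14.7, 15.9 and 14.4 CPM with WT and at 24.8, 21.9 and 18.5 CPM with BimS medium (0.54 ± 0.13, adjusted p = 0.0113). Npc1 was at 68.8, 64.5 and 61.1 CPM with WT and at 87.6, 81.2 and 76.2 CPM with BimS medium (0.33 ± 0.09, adjusted p = 0.022), while its neighbor Rmc1 had a log2 fold change of 0.40. Npc2 was at 255, 279.6 and 298 CPM with WT and at 207, 215 and 227 CPM with BimS medium (-0.36 ± 0.08, adjusted p = 0.00689). The 3 genes had groups that did not overlap. The call of Stard4 was lost without BimS replicate 1 or 2, that of Npc2 without WT replicate 2 or BimS replicate 1, and that of Npc1 without any 1 of these 3.

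With RIPK3 medium, 5 of the 27 members rose in cDC2s and none fell past the threshold, at a background of 3.93% higher and 3.28% lower. The median log2 fold change was 0.24 over the members and -0.02 over all genes. The group had 2 samples, and without either of them 1 call was left, Lbr without replicate 1 and Sqle without replicate 2. The lone sample is then assumed to vary like the other groups, and the share of all genes called was 3.52% and 3.34%, against 7.21% with both. Without WT replicate 2 the count was 2, at 4.91% of all genes. With the replicate block, 13 members were higher and 2 lower, where 10.0% and 11.4% of all genes were.

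Sqle was at 14.8 and 13.3 CPM with RIPK3 medium, above the WT samples at 8.57, 8.66 and 9.61 CPM (0.64 ± 0.14, adjusted p = 0.00686). Lbr was at 48.2 and 50.3 CPM, against 34.6, 34.5 and 30.8 CPM (0.55 ± 0.10, adjusted p = 0.00148). Cyp51 was at 63.1 and 54.6 CPM, against 49.0, 41.2 and 40.5 CPM (0.42 ± 0.12, adjusted p = 0.0349). Each of the 3 was above all WT samples. The call of Cyp51 was lost without WT replicate 2 or 3, BimS replicate 2 or either RIPK3 sample, and with both limma fits.

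Npc1 was at 87.6 and 82.9 CPM with RIPK3 medium (0.39 ± 0.10, adjusted p = 0.015), and Rmc1 moved by 0.54. Pmvk, phosphomevalonate kinase, was at 59.2 and 58.5 CPM, against 42.5, 42.3 and 49.3 CPM with WT medium (0.39 ± 0.10, adjusted p = 0.021). With BimS medium Pmvk was at 44.5, 46.1 and 51.7 CPM, overlapping WT. In the fit without the block it was the 1 member called with RIPK3 and not with BimS medium in cDC2s, and in the blocked fit Ggps1 and Lss were so called too. The call of Pmvk was lost without WT replicate 1 or 2 or either RIPK3 sample, and that of Npc1 without WT replicate 2 or either RIPK3 sample. The difference of Pmvk between the 2 kinds of debris did not pass the test without the block (0.31 ± 0.10, adjusted p = 0.314) and passed with it.

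Between RIPK3 and BimS medium in cDC2s no member passed edgeR's threshold, at a background of 0.161% of genes higher and 0.218% lower. DESeq2 called 1, at 0.733% of all genes. The median log2 fold change was -0.15 over the members and -0.01 over all genes. Of the 27 members, 17 were below 0 and 9 had an unadjusted p under 0.05. The shares of all genes by these last 2 measures were not computed, so these counts have no background. Stard4, at 15.8 and 11.95 CPM with RIPK3 medium was below every BimS sample at 24.8, 21.9 and 18.5 CPM (-0.66 ± 0.15, adjusted p = 0.0542). Sqle, at 14.8 and 13.3 CPM against 23.1, 21.6 and 17.4 CPM, stood at -0.57 ± 0.14 (adjusted p = 0.0861).

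With the replicate block, 9 members were lower and 3 higher with RIPK3 medium, at a background of 8.40% and 5.92%. The 12 were Hmgcs1, Pmvk, Idi1, Fdps, Sqle, Lss, Cyp51, Msmo1, Ebp, Srebf2, Stard4 and Npc2. Of these, Pmvk, Ebp and Npc2 were the higher ones.

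**Figure D3:**
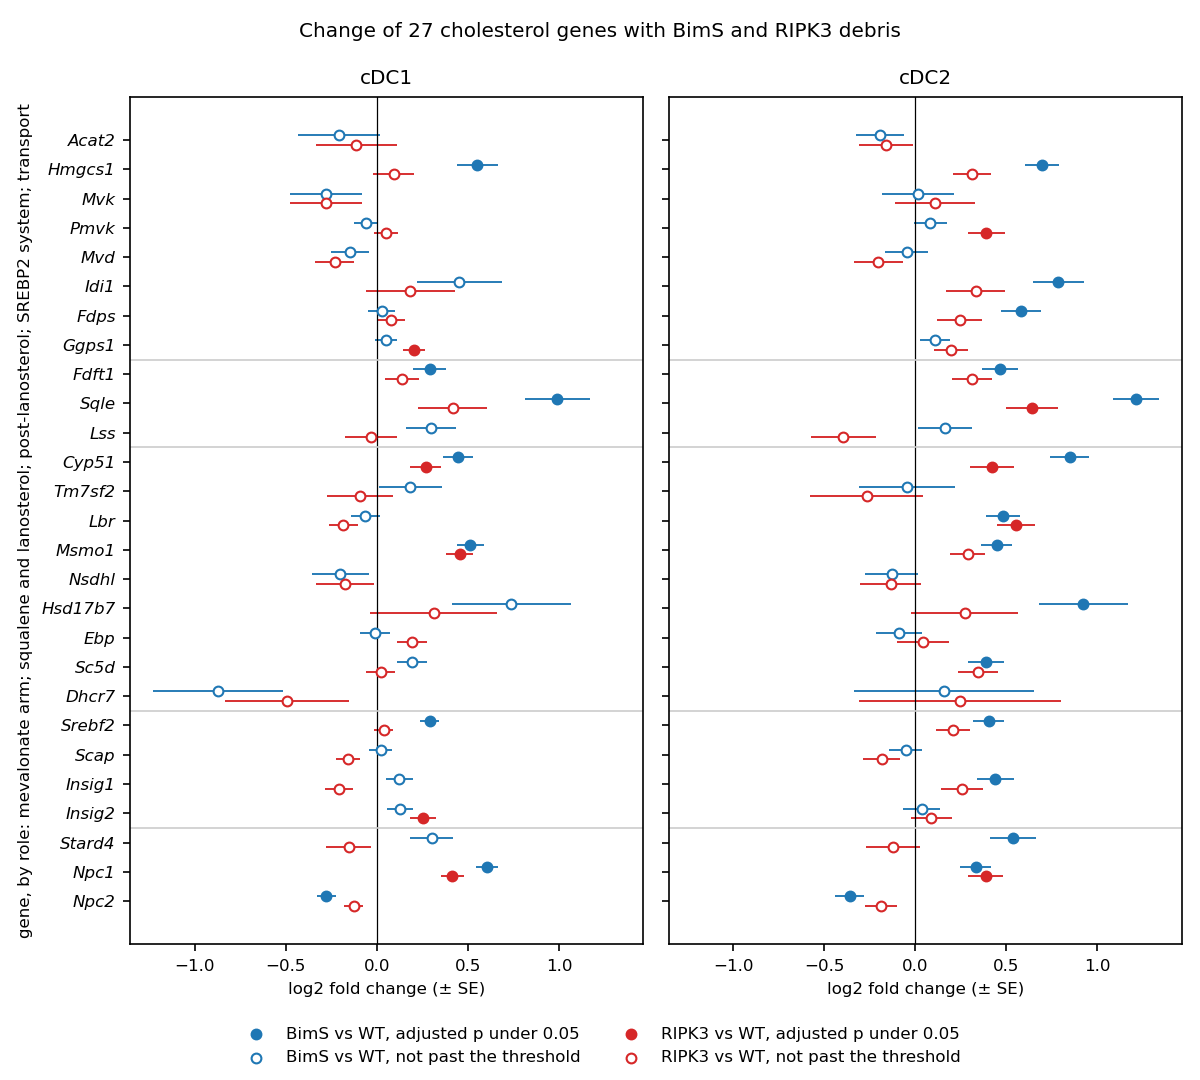
Log2 fold change (± SE) of each member with BimS (blue) and RIPK3 medium (red) against WT medium in cDC1s (left) and cDC2s (right), in pathway order from top to bottom with gray lines between roles and filled points past an adjusted p of 0.05. Filled blue points are more frequent on the right, with 15 in cDC2s against 8 in cDC1s, and Sqle lies furthest right in both panels with BimS medium.

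The responses of the cell types, which share no samples, were set side by side. With BimS medium, 21 of the 27 members had the same sign in cDC1s and cDC2s and Pearson's r across the members was 0.74, beside 75.2% of the same sign and an r of 0.78 over 7316 well expressed genes. With RIPK3 medium 23 had the same sign, beside 76.7% of all these genes, and r was 0.47 beside 0.80. The points of these correlations are genes and not replicates, and the cDC1s and cDC2s were cultured together before the sort.

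Of the 7 members called higher with BimS medium in cDC2s and not in cDC1s without the block (with it, Sc5d and Stard4 were also called in cDC1s), 2 passed the test of the difference itself, the interaction of cell type and medium. Over all genes 0.309% of interactions were called lower in cDC1s and 0.561% higher. The first was Fdps (ENSMUSG00000059743, chr3:89000888-89019213 in GRCm39), at 27.2, 30.0 and 28.1 CPM with WT and at 29.3, 30.8 and 26.8 CPM with BimS medium in cDC1s (0.03 ± 0.07), against a rise of 0.58 in cDC2s. Its interaction was -0.56 ± 0.13 (adjusted p = 0.0337), and it lost the call on leaving out 9 of the 17 samples in turn.

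The second was Lbr (ENSMUSG00000004880, chr1:181641631-181672984 in GRCm39). In cDC1s it was at 20.6, 21.7 and 20.9 CPM with WT, at 20.0, 21.6 and 18.8 CPM with BimS and at 18.4, 18.9 and 18.3 CPM with RIPK3 medium, so that the RIPK3 samples lay below the WT samples (-0.18 ± 0.08, adjusted p = 0.131). In cDC2s it rose with both. The interaction was -0.55 ± 0.11 for BimS (adjusted p = 0.0101) and -0.75 ± 0.12 for RIPK3 medium (adjusted p = 0.000455), and the first was lost without cDC1 BimS replicate 3.

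For RIPK3 medium Lbr was the 1 member called, where 0.477% of genes were called lower and 0.660% higher. With the replicate block 3 members were called lower, namely Lbr, Pmvk and Insig1, at a background of 1.04% lower and 1.32% higher. Insig1 stood at -0.47 ± 0.14 without the block (adjusted p = 0.101), with a log2 fold change of -0.21 in cDC1s and 0.26 in cDC2s. For BimS medium the block added Cyp51, whose interaction was -0.41 ± 0.14 (adjusted p = 0.298) without it. The share of all genes called in that interaction rose from 0.87% to 2.32% with the block. The interaction of cell type with RIPK3 against BimS medium gave no call by edgeR, where 0.0314% of genes were called lower and 0% higher. DESeq2 called none either. An unadjusted p under 0.05 was reached by 2 members, and the share of all genes at that cutoff was not computed. The members not named here had interactions that did not pass, so a difference between the cell types was not shown for them.

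**Figure D4:**
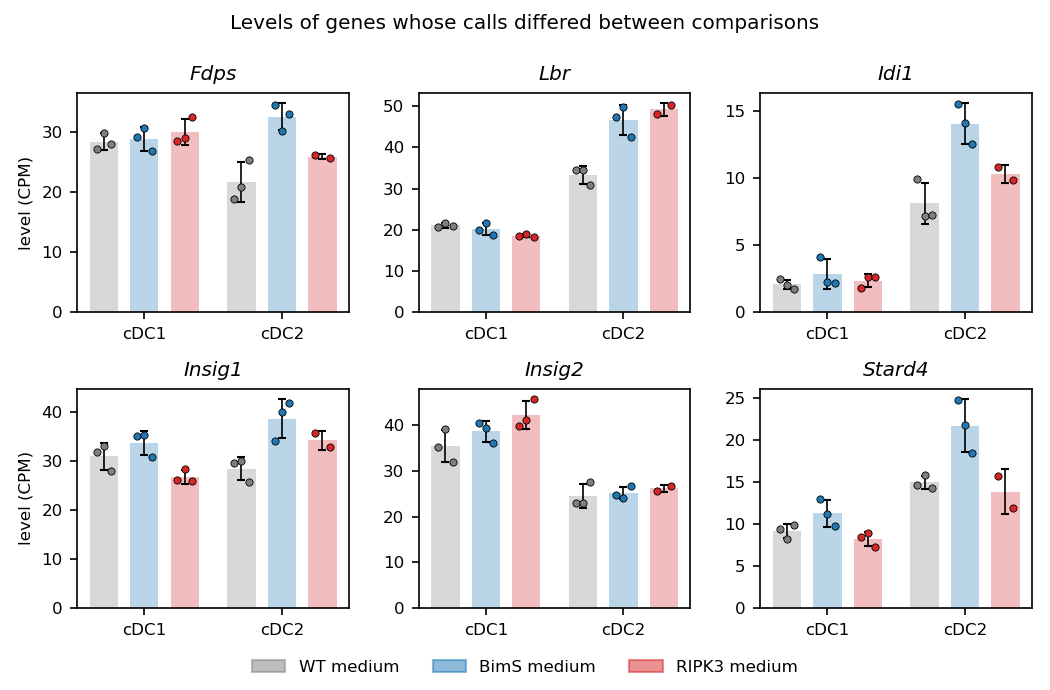
Levels in CPM of 6 members whose calls differed between comparisons, by medium (gray WT, blue BimS, red RIPK3), with bars for means, error bars for SD and points for samples. Fdps and Lbr are higher with BimS than with WT medium in cDC2s, while in cDC1s the samples of these media overlap and the RIPK3 samples of Lbr lie below its WT samples, and Insig1 and Stard4 are lower with RIPK3 than with BimS medium in cDC1s.

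Across the 4 comparisons with WT medium, 9 members did not pass the test in the fit without the replicate block: the mevalonate genes Acat2, Mvk and Mvd, the lanosterol synthase Lss, the later enzymes Tm7sf2, Nsdhl, Ebp and Dhcr7, and Scap. With the block, Ebp passed in cDC1s with RIPK3 medium (0.19, adjusted p = 0.0434) and Lss in cDC2s with RIPK3 medium (-0.46, adjusted p = 0.0353). Dhcr7 rested on 4 to 32 counts a sample. In cDC1s with BimS medium it was at 0.76, 0.42 and 0.72 CPM, overlapping the WT samples at 0.60, 1.42 and 1.44 CPM (-0.87 ± 0.35, adjusted p = 0.11), and it was called without WT replicate 1 (-1.18, adjusted p = 0.0223). Lss was called in cDC1s with BimS medium without WT replicate 3 (0.53, adjusted p = 0.0103). With RIPK3 medium in cDC1s, Mvd was called without RIPK3 replicate 3 (-0.36, adjusted p = 0.0186) and Ebp without RIPK3 replicate 1 (0.29, adjusted p = 0.00657).

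Other genes of the pathway were grouped into 5 lists, and differences between lists were not tested. Their counts in cDC1s stand beside the same background as the members, 7.31% of genes higher and 5.89% lower with BimS medium and 8.34% higher and 8.19% lower with RIPK3 medium. Of 10 genes of SREBP processing and sterol sensing, none rose and 2 fell in cDC1s with each kind of debris. Rnf145, a sterol-responsive ubiquitin ligase of the endoplasmic reticulum, was at 161 to 167 CPM with WT, 111.5 to 119 with BimS and 111.6 to 123 with RIPK3 medium in cDC1s (-0.49 ± 0.05 and -0.47 ± 0.05). It fell in cDC2s as well (-0.39 ± 0.08 and -0.37 ± 0.09). Of 10 genes of the isoprenoid branches, which use the same precursors for ubiquinone, dolichol and protein prenylation, none passed the test with either debris in either cell type, and their medians lay between -0.03 and 0.05.

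Among 9 further SREBP targets and genes of acetyl-CoA supply, Acss2, an acetyl-CoA synthetase, rose in all 4 comparisons. In cDC1s it went from 6.31 to 9.12 CPM with WT to 12.1 to 15.2 with BimS and 14.0 to 16.3 with RIPK3 medium (0.84 ± 0.12 and 0.99 ± 0.12). In cDC2s its log2 fold changes were 1.34 ± 0.14 and 1.10 ± 0.15. Aacs, acetoacetyl-CoA synthetase, was the 1 that fell, in cDC1s with RIPK3 medium (-0.30 ± 0.08).

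Of 10 genes of uptake and intracellular cholesterol transport, 3 rose in cDC1s with each debris, and 1 fell with BimS and 2 with RIPK3 medium, where 7.31% and 8.34% of all genes rose and 5.89% and 8.19% fell. Lipa, the lysosomal lipase that frees cholesterol from its esters, was at 82.2 to 89.8 CPM with WT, 268 to 309.6 with BimS and 285 to 313 with RIPK3 medium in cDC1s (1.76 ± 0.06 and 1.80 ± 0.06). In cDC2s it rose by 1.00 ± 0.09 and 0.90 ± 0.10. The largest falls in cDC1s were those of the endocytic receptor Lrp1 with BimS (-0.25 ± 0.06) and of Stard3 with RIPK3 medium (-0.28 ± 0.07), and Lrp1 rose in cDC2s (0.42 ± 0.09 and 0.46 ± 0.10).

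Of 7 genes of LXR and storage, where LXR is the receptor that senses oxysterols, 6 were tested in cDC1s, and 2 rose and 2 fell in cDC1s with each debris, beside the same shares of all genes. The cholesterol esterifying enzyme Soat1 rose most with RIPK3 (0.94 ± 0.05) and the ubiquitin ligase Mylip with BimS medium (0.96 ± 0.10). The exporters Abca1 (-1.08 ± 0.17 with BimS medium) and Abcg1 (-0.90 ± 0.06 with RIPK3 medium) fell most. In cDC2s Abcg1 alone passed, with -0.92 ± 0.09 and -0.62 ± 0.10.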

How the data were processed

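Gene counts of 17 libraries were analysed. Per the labels and the study's methods, the authors trimmed reads, aligned them with STAR 2.7.10a to GRCm39 and deposited raw counts for each gene. The strand setting of the counting is not given in the sources used here. A deposited normalized table was not used. Of 31239 lines, 148 carry no gene identifier (0.0258% to 0.0366% of counts) and were left out.

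Genes detected in 50% or more of a fit's samples were tested with edgeR 4.0.16 (TMM, robust quasi-likelihood test, Benjamini-Hochberg threshold 0.05) in R 4.3.3. Each cell type was fitted alone, and all 17 samples were fitted with 6 group means for comparisons between cell types. The SE is the absolute log2 fold change divided by the square root of F. Whether groups overlap is read from the same values as the test, so it describes a call and adds no support to it. DESeq2 1.42.0, limma 3.58.1, other scalings and filters, a replicate block and leaving out each sample were the alternatives.

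Within a cell type, deviations from the group means of samples with the same replicate number correlated in all 16 pairs above 0.1 (lowest r 0.148, median 0.355), against 4 of 32 pairs with different numbers. The numbers were therefore taken to pair the samples in the replicate block. The main fits leave this pairing out, so their SE and adjusted p-values ignore it. Members that the block added are given beside them. This pairing comes from the data, since the methods name none.

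The members and the other lists were chosen with earlier results of these data known. All members are reported. Of each other list, the text names the called gene with the largest rise and the largest fall in each cDC1 comparison with WT medium. Counts without molecular identifiers are not independent molecules, and depth limits genes with few counts.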

Additional observations from a re-analysis of the deposited data

Results flagged for a closer look

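Of the values above, 3 drew attention because the response to debris differed between the cell types by the interaction test. Fdps responded less in cDC1s than in cDC2s to BimS medium, with an interaction of -0.555 on the log2 scale (adjusted p = 0.0337). Lbr did so for BimS medium with -0.549 (adjusted p = 0.0101) and for RIPK3 medium with -0.747 (adjusted p = 0.000455). The adjusted p-values are from edgeR's quasi-likelihood test.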

How the results depend on the processing

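No called member changed direction under any alternative run. Counts of members called that moved by over 1.5 times are given here, and the causes were not tested. The share of all genes called in the same fit stands in parentheses, and in the main fits it was 16.5% for RIPK3 against WT and 4.15% for RIPK3 against BimS in cDC1s, and 7.01% for BimS against WT, 7.21% and 0.379% in cDC2s. DESeq2 gave 5 for RIPK3 against BimS medium in cDC1s (4%) and 1 in cDC2s (0.733%). The joint fit of all samples gave 3 for RIPK3 against WT in cDC1s (12.2%), 1 for RIPK3 against BimS in cDC1s (1.41%) and 1 in cDC2s (1.28%). For RIPK3 against BimS in cDC1s the 1 was Hmgcs1. Srebf2, Insig1 and Stard4, which the main fit called there, were not called. Without a filter on low counts, RIPK3 against BimS gave 6 in cDC1s (3.63%) and 4 in cDC2s (1.11%). With filterByExpr the counts of members moved less, but the shares of all genes rose. BimS against WT gave 8 in cDC1s (20.1%) and 15 in cDC2s (10.7%). RIPK3 against WT gave 5 in cDC1s (25.1%) and 7 in cDC2s (11%). With limma on log2(count + 1), which sets no library scale, the median of all genes moved to -0.12 in cDC1s and -0.17 in cDC2s for RIPK3 against WT. That comparison gave 3 in cDC1s, 2 higher and 1 lower (14.1%), and 0 in cDC2s (8.32%). BimS against WT gave 6 in cDC2s (5.5%), RIPK3 against BimS gave 2 in cDC2s (0.769%), and the interactions with WT medium gave 0 for BimS (0.351%) and 0 for RIPK3 (0.571%).

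With the replicate block, the pairing gave 9 for RIPK3 against WT (21%) and 8 for RIPK3 against BimS (8.87%) in cDC1s. It gave 15 (21.4%) and 12 (14.3%) in cDC2s, and 3 for the interaction of RIPK3 medium (2.35%). No call was lost by it.

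Leaving out each sample in turn gave 7 to 9 for BimS (9.86% to 15.6%) and 4 to 6 for RIPK3 against WT (12.6% to 16.4%) in cDC1s. RIPK3 against BimS gave 2 to 8 there (2.42% to 5.09%). In cDC2s the ranges were 10 to 15 (4.2% to 8.09%), 2 to 6 (4.91% to 9.74%) and 0 to 3 (0.123% to 1.15%). They were 15 to 18 between cell types (41.5% to 45.6%). For the interactions they were 0 to 2 with BimS (0.479% to 1.2%) and 1 to 2 with RIPK3 medium (0.778% to 1.33%). Ranges that involve RIPK3 medium in cDC2s leave out fits with 1 sample in that group. A lost call was not told apart from fewer calls over all genes. Hsd17b7 and Dhcr7 rest on few counts.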
